A study of Mus musculus with 6 samples.

Results

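Mitochondria-rich cells of the GL261-GSCs cultures were chosen by their mitochondrial share: they are the cell barcodes in which mitochondrially encoded transcripts made up at least 3% and under 10% of all unique molecular identifiers (UMIs, the count of captured RNA molecules). They were drawn from the barcodes with at least 2500 UMIs and 500 genes in the 4 GL261-GSCs libraries, and numbered 4556 of 22170. The whole series held 32236 such barcodes in 6 libraries. GL261-GSCs are cultures of the mouse glioma line GL261 that the labels call glioblastoma stem cells and that were kept in defined GSC medium. The other 2 libraries are GL261 itself, labelled glioblastoma cells and kept in differentiation medium with fetal calf serum. The labels name no genetic change, drug or time point, and both groups come from the one established line. According to the protocols in the labels, Accutase was used to dissociate the cultures, a lysis buffer with the detergent IGEPAL CA-630 followed, and either cells or nuclei entered the droplets that gave the 5' libraries. Which of these were loaded, and whether replicates were separate cultures, is not given, so the p-values measure only the spread between these libraries.

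Each mitochondrion carries a small circular genome that encodes core subunits of the respiratory chain and its own ribosomal RNAs, and these transcripts stay inside the organelle. All other subunits of the chain are encoded in the nucleus and translated outside. Most mRNAs lie free in the cytosol, while mRNAs of secreted and membrane proteins are translated at the endoplasmic reticulum (ER), and long noncoding RNAs such as Malat1 and Neat1 are retained in the nucleus. A high mitochondrial share at low depth is widely used as a sign of damaged or leaky cells in droplet data, and is also seen in cells rich in mitochondria.

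The cells set beside them were the 15447 barcodes of the same 4 libraries with a mitochondrial share of 0.5% to under 2%, called comparison cells here. In GL261-GSCs replicates 1 to 4 there were 709, 700, 1909 and 1238 mitochondria-rich cells and 3266, 4776, 5007 and 2398 comparison cells. Both kinds were thinned to 2000 UMIs per cell before levels were compared, and levels of nuclear-encoded genes were taken over nuclear-encoded UMIs only. Pairs of GL261-GSCs libraries shared 0 to 4 barcodes of mitochondria-rich cells. Total UMIs per library lay between 80899005 and 121309232. Barcodes of 100 to under 1000 UMIs, taken as a measure of free RNA, held a median of 472 to 679 UMIs. In replicate 4 these barcodes stood apart: their mitochondrial share was 2.04%, against 0.568% to 0.907% in replicates 1 to 3, and their Malat1 share of nuclear-encoded UMIs was 1.38%, against 0.274% to 0.421%.

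Mitochondria-rich cells formed a mode of their own in GL261-GSCs replicates 3 and 4. They formed a low, broad rise after a dip in replicate 1 and a broad shoulder in replicate 2. In bins of equal width on a log scale, replicate 3 fell to 1.18% of barcodes near a mitochondrial share of 2% and climbed to 3.21% per bin above it, and replicate 4 went from 1.74% to 4.29%. Replicate 1 went from 1.35% to only 2.23% and replicate 2 stayed between 1.24% and 1.72% up to a share of 5%. The range of 2% to 3%, which belongs to neither kind of cell, held 274, 328, 332 and 306 barcodes in replicates 1 to 4. Another 55, 78, 212 and 63 barcodes lay at 10% or above and were outside the rule. Of all barcodes under 10%, mitochondria-rich cells made up 16.2% in replicate 1, with an exact 95% binomial interval of 15.1% to 17.3%. The share was 11.8% in replicate 2 (11.03% to 12.69%), 25.8% in replicate 3 (24.8% to 26.8%) and 30.4% in replicate 4 (29.0% to 31.9%). Replicates 3 and 4 thus held a larger share than replicates 1 and 2, and these intervals, which cover counting error only, do not overlap between any of the 4 libraries.

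**Figure D1:**
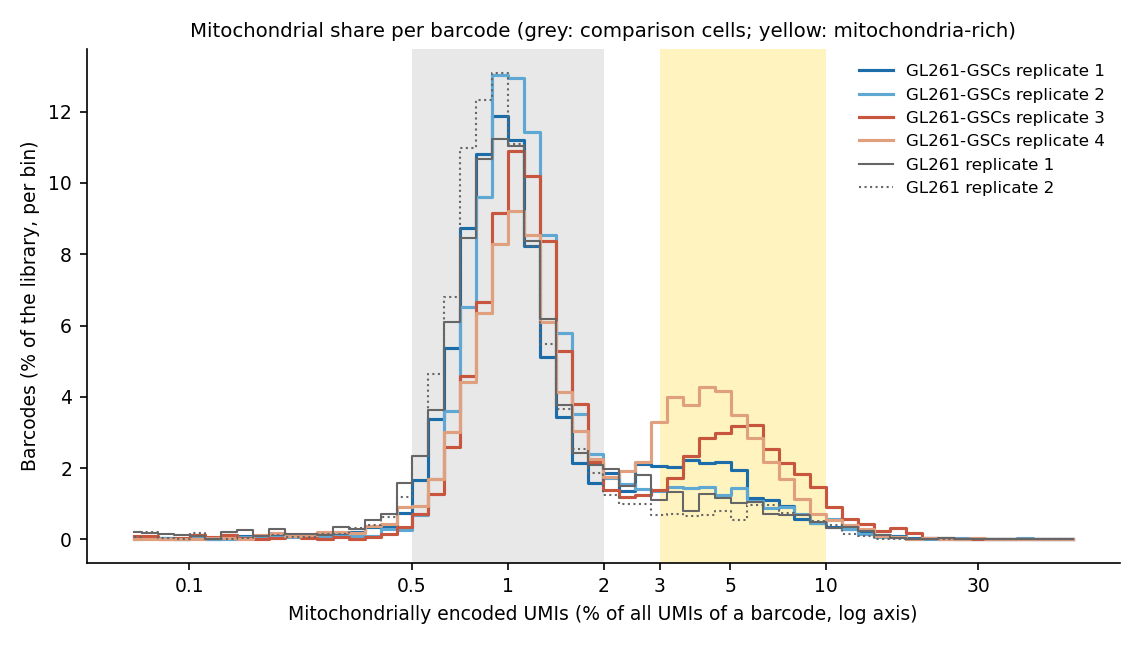
Distribution of the mitochondrial share of UMIs (x axis, percent, logarithmic) over barcodes of at least 2500 UMIs in each library, as percent of barcodes per bin (y axis). Shading marks the ranges of the comparison cells and of the mitochondria-rich cells. A mode in the second range is seen in GL261-GSCs replicates 3 and 4. Replicate 1 shows a low, broad rise there, and replicate 2 and the GL261 libraries show a shoulder.

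In the serum-grown GL261 libraries the same rule found 483 and 384 cells, or 9.77% and 7.64% of barcodes under 10%. Over the 4 libraries of GL261-GSCs the mean was 21.1% ± 8.55 (SD), and over the 2 libraries of GL261 it was 8.70% ± 1.51 (SD). The lowest GL261-GSCs value was above the highest GL261 value. The difference of 12.4 percentage points had an exact permutation p of 0.133 (2-sided, by the absolute difference of means). With 4 against 2 libraries no p below 0.0667 is possible. Without replicate 4, whose free RNA stood apart, the difference was 9.24 percentage points.

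The mitochondria-rich cells were shallow. Their median depth was 6602, 5071, 4902 and 4272 UMIs in replicates 1 to 4, against 16892, 12684, 12536 and 9596 in comparison cells. The medians did not overlap between the kinds of cell, though single cells did, and the ratio of medians was 0.391 to 0.445. Depth is the denominator of the share that chose the cells, so these values are a description with no test. Only 2.54% to 4.29% of mitochondria-rich cells lay above the median depth of the comparison cells of their own library.

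Mitochondrial UMIs themselves were more numerous. Median mitochondrial UMIs per cell were 303, 250, 265 and 211 in mitochondria-rich cells and 159, 131, 135 and 98 in comparison cells. Each library thus had 1.90 to 2.15 times as many mitochondrial UMIs per mitochondria-rich cell. Nuclear-encoded UMIs went the other way, with medians of 6269, 4824, 4634 and 4083 against 16758, 12565, 12391 and 9489. Fewer genes were seen per cell as well, with medians of 2382 to 3163 against 3396 to 4843. At the equal depth of 2000 UMIs the order turned: mitochondria-rich cells showed medians of 1353 to 1366 genes and comparison cells 1172 to 1249. Among cells of 2500 to under 5000 UMIs the gap was smaller in replicates 1, 2 and 4, but not in replicate 3, with 1354, 1366, 1356 and 1350 genes in mitochondria-rich cells of replicates 1 to 4 against 1329, 1277, 1172 and 1346.

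**Figure D2:**
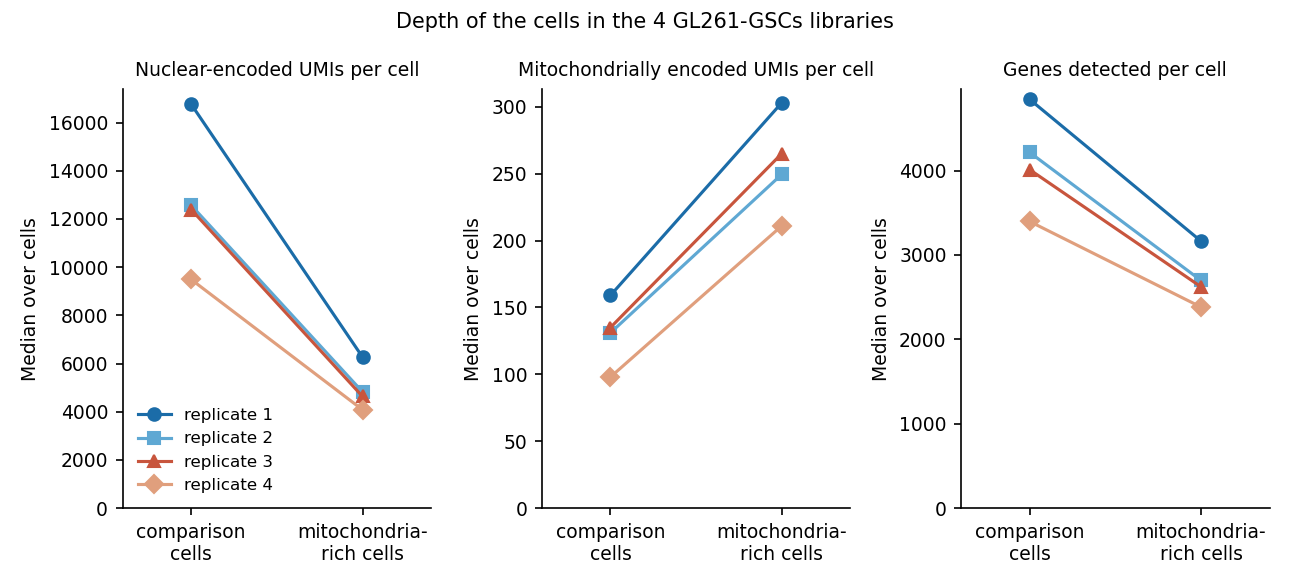
Median nuclear-encoded UMIs, mitochondrially encoded UMIs and genes detected per cell (y axes, from 0) in comparison and mitochondria-rich cells (x axes), with 1 line per GL261-GSCs library. Mitochondrial UMIs lie between 211 and 303 in the mitochondria-rich cells of GL261-GSCs and between 98 and 159 in comparison cells, and nuclear-encoded UMIs and genes lie in the opposite order.

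Free RNA makes up more of a shallow barcode. The median free-RNA barcode was 9.31% to 14.4% of the median depth of mitochondria-rich cells and 3.72% to 6.40% of that of comparison cells. Its composition lay near that of comparison cells for ribosomal protein genes, at 16.8% to 17.8% of nuclear-encoded UMIs. Subtracting it, an alternative chosen after seeing the data, kept the direction of all named genes, and the part of free RNA in single values was not tested further.

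Within the mitochondrial transcripts the composition differed a little between the kinds of cell, again as a description only. By the mean of the 4 libraries the most abundant was mt-Cytb, the cytochrome b subunit of complex III, at 25.9% ± 4.63 (SD, n = 4) of mitochondrial UMIs in mitochondria-rich cells and 29.7% ± 4.39 in comparison cells. Cytochrome c oxidase subunit mt-Co1 took 25.4% ± 8.01 and 26.1% ± 8.20, and exceeded mt-Cytb in mitochondria-rich cells of replicates 3 and 4. The large mitochondrial ribosomal RNA mt-Rnr2 was a larger part in mitochondria-rich cells, at 17.2% ± 1.41 against 13.1% ± 1.66, and was higher in 4 of 4 libraries. Per cell, mt-Rnr2 had 2.57 to 3.15 times as many UMIs as in comparison cells. The ATP synthase subunit mt-Atp8 behaved likewise, with 6.77% ± 0.799 against 4.63% ± 0.526 and a ratio per cell of 2.95 to 3.20. The complex I subunit mt-Nd6 made up 1.11% ± 0.163 against 0.808% ± 0.177, and its ratio per cell was 2.74 to 3.21. Its fellow complex I subunit mt-Nd1 was a smaller part, at 8.74% ± 1.87 against 10.6% ± 2.10, and its ratio per cell was only 1.69 to 1.76. The 10 most abundant mitochondrial transcripts were thus all higher per cell in mitochondria-rich cells of each library, by unequal amounts.

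Nuclear-encoded genes were tested between mitochondria-rich and comparison cells, as UMIs summed per library and kind of cell, with the library as a block (edgeR quasi-likelihood test, Benjamini-Hochberg adjustment over all genes). Differences are given on the log2 scale, mitochondria-rich minus comparison cells, and levels as CPM, nuclear-encoded UMIs scaled with TMM to a common library total. Of 11901 genes tested, 8876 (74.6%) had an adjusted p under 0.05, 4458 of them higher (37.5%) and 4418 lower (37.1%) in mitochondria-rich cells. The difference had the same sign in 4 of 4 libraries for 8292 of the called genes. With TMM scaling, at least 2-fold differences were more often falls, with 1982 genes lower (16.7%) and 1060 higher (8.91%), an order that turned on plain CPM, with 944 lower and 3422 higher. A call therefore says little on its own, and the sizes and the lists below are read against these shares and against a median difference over all tested genes of 0.03. Among the 1620 genes with an average log2 CPM of at least 7 the median was lower, at -0.53.

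The scale thus bears on the balance of rises and falls. TMM scaling centres the bulk of genes, while plain CPM divides by all nuclear-encoded UMIs of a sum. On plain CPM the median over all tested genes was 0.55, and 7143 genes were called higher and 2548 lower, or 73.7% of calls higher against 50.2% with TMM. Genes with a TMM difference between about -0.52 and 0 thus change sign on plain CPM. UMIs per cell without thinning are a further scale, on which median nuclear-encoded UMIs as a whole stood at 0.374 to 0.430 of the comparison cells. Per-cell values of lists and single genes are means over cells, so this ratio of medians is an unlike measure.

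Malat1, the nuclear-retained noncoding RNA that marks these cells, rose to 8236, 9369, 11524 and 14842 CPM in mitochondria-rich cells of replicates 1 to 4, from 2844, 3494, 4381 and 7652 in comparison cells. Within each library the mitochondria-rich value was the higher, by 1.33 ± 0.13 (SE) on the log2 scale, while the lowest mitochondria-rich library lay just above the highest comparison library. Malat1 was already known as the marker, so this difference is given as a description. It lies at chr19:5795690-5802672 (GRCm38). Per cell, without thinning, it had 67.1 ± 7.86 UMIs (SD, n = 4) against 42.8 ± 7.12, so that it was 1.45 to 1.66 times higher even in these shallow cells. Replicate 4 gave the highest value in both kinds of cell, and without it the difference was 1.45.

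Neat1, the neighbouring RNA that builds nuclear paraspeckles, at chr19:5824708-5845478, had 1059, 1028, 648 and 686 CPM in mitochondria-rich cells. Comparison cells had 186, 205, 170 and 372 CPM, with no overlap between the kinds. The difference was 1.91 ± 0.12 (SE, adjusted p 4.31e-22 by edgeR). All 6 tested genes of the 11 on the list of nuclear-retained RNAs were higher, with a median difference of 1.32. Kcnq1ot1, the antisense RNA of an imprinted domain, was among them at 1.49 ± 0.09, and Pvt1, a noncoding RNA next to Myc, at 1.3 ± 0.07. The list as a whole took 1.46% ± 0.327 (SD, n = 4) of nuclear-encoded UMIs in mitochondria-rich cells and 0.417% ± 0.187 in comparison cells. It had 1.46 to 1.70 times as many UMIs per cell. Malat1 alone took 1.31% and 0.382%, so these sums mostly restate the marker and are a description.

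These rises were smaller where depth was matched. Cells of 2500 to under 5000 UMIs of both kinds, 200 to 990 mitochondria-rich and 50 to 261 comparison cells per library, gave a difference of 0.84 for Malat1 and 0.82 for Neat1. Neat1 was not higher there in each library: in replicate 4 it took 0.0869% of nuclear-encoded UMIs in mitochondria-rich and 0.131% in comparison cells, while replicates 1 to 3 had 0.178%, 0.138% and 0.0891% against 0.0465%, 0.0515% and 0.0330%. Of all 7555 genes tested in this window, 1124 were called higher and 1248 lower, or 31.4% together. Counts for the window given below are read against these. Only 2 of 5 tested nuclear-retained RNAs were called in it, and Pvt1 at 0.30 (adjusted p 0.233 by edgeR) and Kcnq1ot1 at 0.12 were not. Comparison cells of this depth are themselves rich in Malat1: it took 0.544% to 1.39% of their nuclear-encoded UMIs, against 0.226% to 0.45% in comparison cells of 10000 UMIs or more.

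By the rule for named genes, the 10 largest rises among abundant genes were Cd109, Neb, Neat1, Lama4, Chl1, Reln, Serinc5, Aspm, Scd2 and Tm9sf2, with differences from 1.51 to 2.07. Lama4 and Reln are secreted, and Cd109, Chl1, Serinc5, Scd2 and Tm9sf2 are membrane proteins. Cd109, a cell surface glycoprotein anchored by a lipid, led with 403, 370, 416 and 323 CPM in mitochondria-rich cells against 90.6, 77.8, 100.1 and 92.0 in comparison cells. The libraries of the kinds lay far apart, and the rise of 2.07 ± 0.07 (SE) had an adjusted p of 6.6e-33 by edgeR, a 4.2-fold higher level. In the window of matched depth it was 1.96. Per cell, Cd109 (chr9:78615546-78716253) had 2.5 to 2.6 times as many UMIs in mitochondria-rich cells of each library, so that more copies were seen in the shallower cells.

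Neb, the giant filament protein nebulin of muscle, had 2594, 1378, 1931 and 1466 CPM against 705, 359, 473 and 395. Its difference was 1.94 ± 0.09 (SE), and 2.29 in the window of matched depth. The secreted matrix glycoprotein Reln had 745, 356, 294 and 284 CPM against 221, 96.9, 98.4 and 109.9, a difference of 1.65 ± 0.07. Laminin subunit Lama4 rose by 1.70 and the neural adhesion molecule Chl1 by 1.69. Scd2, the fatty acid desaturase of the ER membrane, rose from 689 ± 171 CPM (SD, n = 4) to 2013 ± 571. All 10 rises kept their direction and their call in the fit to the window, at 0.82 to 2.29, with Neat1, lower in replicate 4, the smallest.

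Ribosomal protein genes fell without exception. All 77 genes of the list, which encode the proteins of the cytosolic ribosome, were lower, in 4 of 4 libraries each, with differences from -2.59 (Rpl23a) to -1.17 (Rpl5) and a median of -2.07. Together they took 6.40%, 6.45%, 5.77% and 6.0% of nuclear-encoded UMIs in mitochondria-rich cells of replicates 1 to 4, against 16.6%, 16.9%, 19.7% and 19.7% in comparison cells. Per cell the list fell to 0.150 ± 0.019 (SD, n = 4) of the comparison level, so that 359 ± 76.8 UMIs stood against 2382 ± 388. Rplp0, a protein of the ribosomal stalk, at chr5:115559467-115563727, had 1941, 1801, 1448 and 1636 CPM against 10013, 8957, 10631 and 10052. Its difference was -2.55 ± 0.13 (SE, adjusted p 1.82e-25 by edgeR), a 5.84-fold fall. Many of these genes have near-identical processed pseudogenes, and how reads shared with them were counted is not given, so single values are uncertain. In the window of matched depth all 77 were still lower, with a median of -1.36.

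Nuclear-encoded subunits of the respiratory chain fell. The mitochondrially encoded ones were higher per cell, but the rule chose cells by their share, so that side is a description. Of 75 nuclear-encoded subunits, 73 were lower and 2 higher, with a median of -1.88. The higher ones were Ndufs1, the largest subunit of complex I, at 0.58 ± 0.07 (SE), and Sdha, the flavoprotein of complex II, at 0.15 ± 0.07. In the window of matched depth 59 of 74 were lower and 0 higher by edgeR, with a median of -1.10, and Ndufs1 at 0.56 (adjusted p 0.0528) and Sdha at 0.41 (adjusted p 0.140) were not called. The ATP synthase subunit Atp5e fell most, from 952, 1041, 1441 and 1349 CPM to 184, 184, 186 and 214. Its difference of -2.64 ± 0.09 (SE, adjusted p 1.69e-32 by edgeR) was a 6.24-fold fall, and no library of one kind overlapped the other. Uqcrq of complex III fell by 2.57 and Ndufa11 of complex I by 2.5 on the log2 scale. The ATP synthase subunits Atp5a1 and Atp5b moved least among the falls, at -0.41 ± 0.07 and -0.53 ± 0.09, and on plain CPM they stood at 0.10 and -0.02, with no call. Per cell, as a mean over cells, the nuclear-encoded list was at 0.190 ± 0.008 (SD, n = 4) of the comparison level. The mitochondrial mRNAs, which the rule favours, were at 1.99 ± 0.062. Medians of all nuclear-encoded UMIs, an unlike measure, stood at 0.374 to 0.430.

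**Figure D3:**
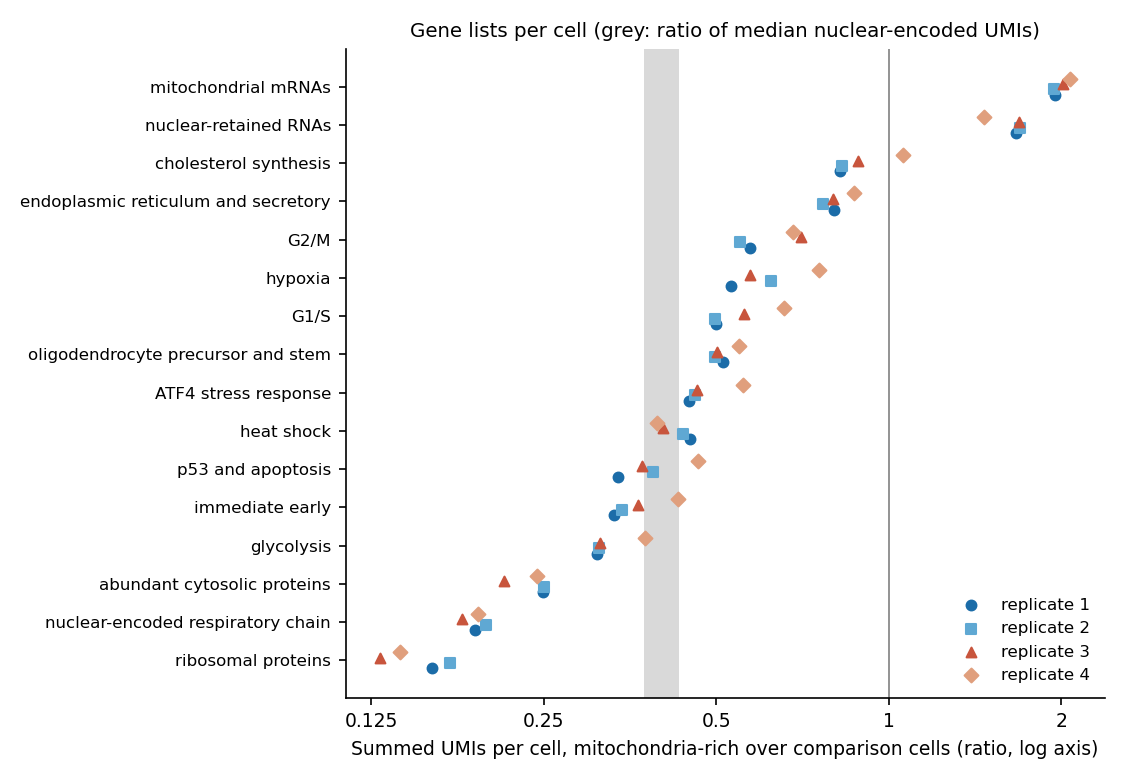
Summed UMIs per cell, as means over cells, in mitochondria-rich cells over comparison cells (x axis, ratio, logarithmic, without thinning) for each gene list (y axis), with 1 point per GL261-GSCs library. The grey band is the ratio of median nuclear-encoded UMIs, not of means. Mitochondrial mRNAs lie at 1.94 to 2.07, nuclear-retained RNAs (mostly Malat1) at 1.46 to 1.70, ER genes at 0.766 to 0.869 and ribosomal protein genes at 0.130 to 0.172.

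Abundant mRNAs of free cytosolic proteins fell in the same way. All 20 genes of that list were lower, with a median of -1.76 (-1.05 in the window of matched depth, with 18 lower), and they took 2.39% ± 0.183 (SD, n = 4) of nuclear-encoded UMIs against 4.44% ± 0.084. Tmsb10, a small protein that binds actin monomers, fell from 4083, 3932, 3385 and 3663 CPM to 849, 693, 418 and 557. The difference was -2.63 ± 0.11 (SE, adjusted p 6.18e-29 by edgeR). Beta-actin, Actb, fell by 1.22, and the translation elongation factor Eef1a1 by 1.06. The glutathione transferase Gstp1 fell by 2.17. Of 15 glycolytic enzymes, 11 were lower and 3 higher, with a median of -0.74. Gapdh fell by 1.85, whereas the hexokinases Hk1 and Hk2, which bind to the mitochondrial outer membrane, rose by 0.61 and 0.45, as did the phosphofructokinase Pfkp by 0.36. On plain CPM 10 glycolytic genes were lower and 5 higher, against 2548 and 7143 of all 11901 genes. In the window 5 of 15 were lower and 2 higher, with a median of -0.36. Without the library block 2 were lower and 0 higher by edgeR, against 3148 and 2623 of all 11901 genes.

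Genes of the ER and the secretory path went the other way in most cases. Of 24 tested, 15 were higher and 7 lower, against 37.5% and 37.1% of all genes, and the median difference was 0.32. The list took 2.56%, 2.25%, 2.47% and 2.29% of nuclear-encoded UMIs in mitochondria-rich cells against 1.3%, 1.27%, 1.33% and 1.27%. The values of the kinds did not overlap. Hspa5, the main chaperone of the ER lumen, rose from 846, 910, 859 and 691 CPM to 2411, 2157, 2076 and 1604, by 1.31 ± 0.09 (SE, adjusted p 2.77e-19 by edgeR). Integrin beta 1, Itgb1, rose by 1.22, the membrane chaperone calnexin, Canx, by 1.21 and the disulfide isomerase Pdia3 by 1.06. The largest falls of the list were those of the translocon subunit Sec61b at -2.16 ± 0.08, the signal peptidase subunit Spcs1 at -1.69 and the tetraspanin Cd63 at -1.08. Sec61a1, the large partner of Sec61b in the same channel, rose by 0.36. In the window of matched depth 12 of 24 were higher and 4 lower, against 1124 and 1248 of all 7555 genes, with a median of 0.51. Per cell the ER list stood at 0.809 ± 0.043 (SD, n = 4) of the comparison level, so that its higher share accompanied fewer, not more, UMIs per cell.

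Genes of the cholesterol synthesis list were mixed. Of 22, 11 were higher and 7 lower, with a median of 0.19, and on plain CPM 15 were higher and 3 lower. Of all 11901 genes, 4458 were higher and 4418 lower, and on plain CPM 7143 and 2548. The share of the list was higher in each library, 0.752% ± 0.197 (SD, n = 4) of nuclear-encoded UMIs against 0.359% ± 0.076, a ratio of 1.96 to 2.22. Per cell it stood at 0.821 to 1.06 of the comparison level. Cyp51, a sterol demethylase, rose by 1.12 ± 0.08 (SE), and Sqle, which makes squalene epoxide, by 0.85 ± 0.07. The enzymes early in the path Mvk, Pmvk and Fdps fell, by 1.3, 0.79 and 0.37, and the fall of Fdps turned to 0.16 on plain CPM, with no call. In the window 10 of 22 were higher and 0 lower by edgeR at an adjusted p under 0.05.

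Transcript length went with the direction. Tested genes whose longest annotated transcript (GENCODE M21) was under 1 kb had a median difference of -1.69, and 81.9% of 668 were lower. The medians were -0.90 for 1930 genes of 1 to 2 kb, -0.09 for 4798 genes of 2 to 4 kb and 0.43 for 3831 genes of 4 to 8 kb. The 668 genes of 8 kb or more had a median of 0.81, and 87.7% of them were higher. This order was the same in each of the 4 libraries. Within the window of matched depth the medians ran from -1.2 to 0.55. Leaving out ribosomal and respiratory chain genes gave -1.62 for the shortest class. On plain CPM the differences are shifted up by about 0.52, so that the sign of the 2 to 4 kb class depends on the scale. How far length or the place of translation accounts for the rises and falls of the lists was not tested.

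**Figure D4:**
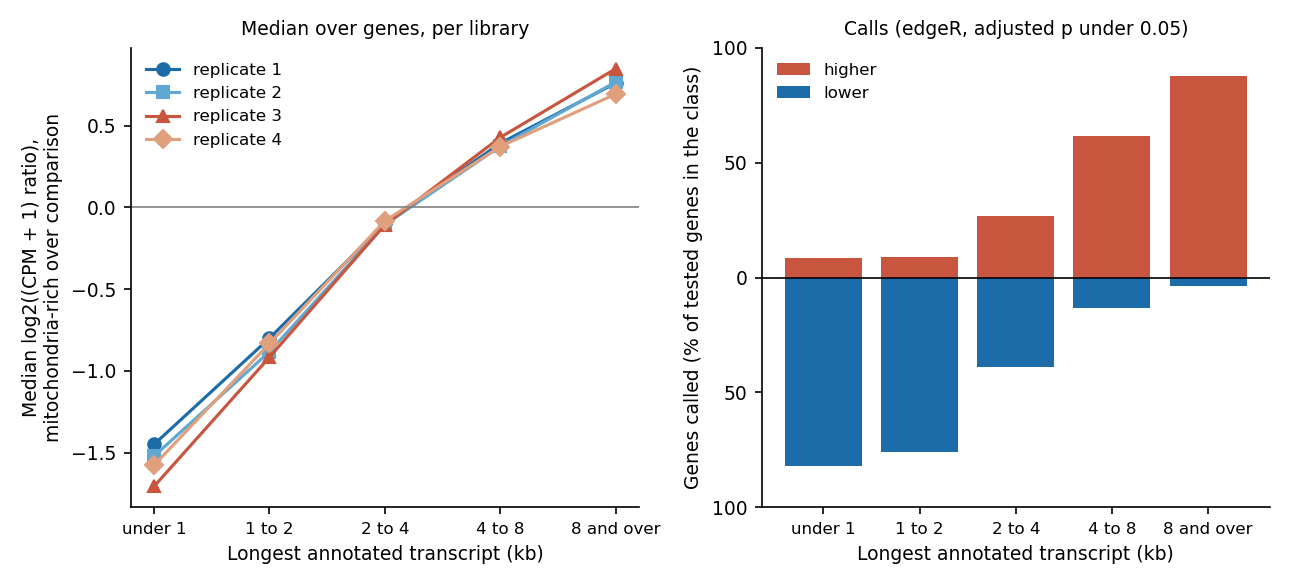
Left, the median over tested genes of the log2 ratio of CPM + 1, mitochondria-rich over comparison cells (y axis), by length class of the longest annotated transcript (x axis, kb), with 1 line per GL261-GSCs library. Right, the percent of tested genes called higher (upward bars) or lower (downward bars) in each class. The library medians climb from between -1.71 and -1.45 under 1 kb to between 0.69 and 0.85 at 8 kb or more.

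Within classes of the longest annotated transcript the lists still differed, not always in the same way. That transcript need not be the one expressed, so these classes do not hold length equal. Among genes of 2 to 4 kb, 12 of 15 ER genes were higher, with a median of 0.39, while 26.7% of all 4798 genes of that class were higher. At 1 to 2 kb, however, 0 of 4 ER genes were higher and 4 lower by edgeR, with a median of -0.78 against -0.90 for all genes, and at 4 to 8 kb the median of 3 ER genes was 0.22 against 0.43. All 7 cytosolic genes of 2 to 4 kb were lower, with a median of -1.75, and so were all 11 ribosomal genes of that length, with a median of -2.01. Annotated classes of RNA differed too. Intronic RNAs in the sense direction were higher for 29 of 31 genes and lower for 0 by edgeR, with a median of 1.47, and the class of unclassified transcripts that await experiments was higher for 275 of 310. Processed pseudogenes were lower for 110 of 143, with a median of -1.48. Of 232 long intergenic RNAs, 100 were higher (43.1%) and 63 lower (27.2%), against 37.5% and 37.1% of all genes. This class, which includes Malat1, took 2.57%, 2.74%, 2.90% and 3.47% of nuclear-encoded UMIs in mitochondria-rich cells against 1.09%, 1.24%, 1.23% and 1.83%. Malat1 alone took 0.951%, 1.14%, 1.37% and 1.77% against 0.240%, 0.303%, 0.348% and 0.638%. The share of the class thus partly restates the marker and is a description. Protein-coding genes, 10779 in all, had a median of 0.00.

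Genes that mark oligodendrocyte precursors and neural stem cells moved in both directions. Of 18 tested, 10 were higher and 8 lower, against 11 and 4 on plain CPM and 5 and 5 without the library block. Of all 11901 genes, 4458, 7143 and 2623 were higher in these fits, and 4418, 2548 and 3148 lower. In the window of matched depth 8 were higher and 2 lower, against 1124 and 1248 of all 7555 genes. Of the tested markers of 2 to 4 kb 3 were higher and 6 lower, of 4 to 8 kb 4 and 1, and of 8 kb or more 3 and 0. Among all genes of these classes 26.7%, 61.6% and 87.7% were higher and 39.1%, 13.2% and 3.74% lower. The higher ones included the proteoglycan Vcan, which rose by 1.71 ± 0.07 (SE) from 45.0 ± 4.95 CPM (SD, n = 4) to 146.6 ± 16.5, and the receptors Kit, Ptprz1 and Pdgfra, which rose by 1.31, 1.25 and 1.19. Cspg4 (NG2), a membrane proteoglycan, rose by 0.98. The lower ones included the transcription factors Sox2, Olig2 and Olig1, at -1.01, -0.69 and -0.66, and the fatty acid binding protein Fabp7 at -1.75. Olig2 had 312, 304, 591 and 573 CPM in mitochondria-rich cells against 482, 504, 1042 and 851. Its values overlap across libraries but were lower within each of the 4. On plain CPM its difference was only -0.17, and in the window of matched depth it was -0.37, with an adjusted p of 0.120 by edgeR. Sox10 and Sox4 changed sign on plain CPM, at 0.15 and 0.08.

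Cell cycle genes were likewise mixed. Of 20 genes of G2 and mitosis, 7 were higher and 10 lower, and on plain CPM 11 and 4. Of all 11901 genes, 4458 were higher and 4418 lower, and on plain CPM 7143 and 2548. Mki67, a large protein that coats mitotic chromosomes, had 499, 561, 743 and 528 CPM against 234, 249, 292 and 222, a rise of 1.22 ± 0.07 (SE, adjusted p 9.71e-23 by edgeR). The kinetochore motor Cenpe rose by 0.98 and topoisomerase Top2a by 0.87. The ubiquitin-conjugating enzyme Ube2c fell from 681 ± 78.8 CPM (SD, n = 4) to 209.8 ± 17.7, by 1.70, and Birc5 (survivin) and Cdk1 fell by 1.53 and 1.17. Of 20 genes of the G1/S step, 4 were higher and 8 lower, with a median of -0.13 that turned to 0.39 on plain CPM. In the window of matched depth 8 G1/S genes were higher and 1 lower, with a median of 0.52. There 5 genes of G2 and mitosis were higher and 3 lower, with a median of 0.11. Over all 7555 genes of the window 1124 were higher and 1248 lower. Summed shares of nuclear-encoded UMIs were higher in each library, at 1.35 to 1.65 times those of comparison cells for G2 and mitosis and 1.18 to 1.41 times for G1/S. The balance of both lists thus depended on scale and depth. The change of scale moved all genes, whose median went from 0.03 to 0.55 on plain CPM.

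Stress lists moved in both directions, and their balance depended on the scale. So did that of all 11901 genes, with 4458 higher and 4418 lower, against 7143 and 2548 on plain CPM. Of 20 tested genes of the ATF4 response, to amino acid and ER stress, 3 were higher and 13 lower, with a median of -0.60. Atf4 itself was at -0.78 ± 0.07 and Ddit3 (CHOP) at -0.84 ± 0.13. On plain CPM 8 were higher and 5 lower. Of 16 immediate early genes, which respond fast to handling, 0 were higher and 14 lower by edgeR with TMM scaling, against 5 and 6 on plain CPM. Jund fell by 1.62, and Fos stood at -0.30 with TMM and 0.22 on plain CPM. Of 12 genes of the p53 response and apoptosis, 4 were higher and 7 lower, against 5 and 5 on plain CPM. The pore-forming Bax fell by 1.74 and the cell cycle inhibitor Cdkn1a by 0.86, while the death activator Bcl2l11 (BIM) rose by 1.06. Of 9 heat shock genes, 3 were higher and 4 lower, against 5 and 3 on plain CPM, and the mitochondrial chaperonin Hspe1 fell by 1.95 while its partner Hspd1 rose by 0.21. Of 12 hypoxia genes, 5 were higher and 4 lower, against 8 and 3 on plain CPM and 0 and 0 without the library block: P4ha1 rose by 1.03 and Slc2a1 by 0.70, whereas Bnip3, a mitophagy receptor, fell by 1.5. The falls of Bax and Hspe1 were smaller in the window of matched depth, at -0.72 and -0.96. In it 5 of 15 ATF4 genes, 7 of 13 immediate early genes and 4 of 11 p53 genes were lower, and 2, 0 and 0 higher, with medians of -0.19, -0.54 and -0.36. The window had 3 of 9 heat shock and 3 of 10 hypoxia genes lower, and 1 and 2 higher, with medians of 0.01 and 0.11. Of all 7555 genes in the window, 1248 were lower and 1124 higher. Without the library block 9 ATF4, 5 immediate early, 6 p53 and 4 heat shock genes were lower by edgeR. Those higher were 1, 0, 3 and 0. Of all 11901 genes, 3148 were lower and 2623 higher in that fit. Bnip3 was no longer called in it, at -1.43 with an adjusted p of 0.248 by edgeR. Summed shares of nuclear-encoded UMIs were 1.08 to 1.14 times those of comparison cells for ATF4 and 1.27 to 1.46 times for hypoxia genes. They were 0.746 to 0.840 times for immediate early, 0.784 to 0.966 for p53 and 0.814 to 1.07 for heat shock genes.

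Markers of microglia, endothelium, neurons, astrocytes and red blood cells were mostly too rare to be tested, while 4 of 6 myelin markers were tested. Of 8 microglia and macrophage markers only Cd68 was tested, at -0.41 with TMM and 0.12 on plain CPM, and Aif1, Tyrobp and C1qa had 0 UMIs in both kinds of cell. The summed share of the list was 0.00148% to 0.00268% of nuclear-encoded UMIs in mitochondria-rich and 0.000984% to 0.00304% in comparison cells. Of 6 endothelial markers only Flt1 was tested, at 1.14 ± 0.07, and the defining Cldn5 had 0 UMIs. The endothelial list took 0.0158% to 0.0208% against 0.00495% to 0.00657%, ranges that do not overlap. In mitochondria-rich cells of each library 3 or 4 of its 6 markers had 0 UMIs. Its share was also higher in GL261, at 4.42 and 3.49 times that of comparison cells in replicates 1 and 2. Of 7 neuronal markers, Syt1 was at 0.48 and Tubb3 at -1.38, and Rbfox3 had 0 UMIs. The neuronal list took 0.0026% to 0.0147% against 0.00391% to 0.0081%. Within replicates 1 to 4 its share was 0.491, 1.12, 2.03 and 1.81 times that of comparison cells. Among 6 astrocyte markers Aqp4 had 0 UMIs in both kinds and Gfap 0 against 3, while Gja1 and Slc1a3 rose by 1.07 and 0.89 and Aldoc fell by 1.12. The astrocyte list took 0.0428% to 0.054% against 0.0237% to 0.0467%, and was higher within each library, at 1.13 to 2.28 times. Of the 4 tested myelin markers 2 were lower, Mog among them at -0.90, and 0 higher by edgeR, with a median of -0.37. On plain CPM 1 was lower and 2 higher. The myelin list took 0.024% to 0.033% against 0.0226% to 0.0289%. Of 5 red blood cell genes, 3 adult globin genes had no UMI in either kind and Hba-a1 had 0 UMIs against 2, while Alas2, the first enzyme of heme synthesis in red cell precursors, had 12 UMIs against 27 without thinning. What the detected markers contribute to the results was not tested.

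Along the mitochondrial share, the change was steepest between the range of the comparison cells and that of the mitochondria-rich cells. In replicate 1 the ribosomal share was 16.8% of nuclear-encoded UMIs at 0.5% to 1% mitochondrial UMIs, 16.3% at 1% to 2%, 11.3% at 2% to 3%, 6.99% at 3% to 4%, 6.22% at 4% to 6% and 5.78% at 6% to 10%. Replicates 2 to 4 gave the same drop, from 16.6% to 19.6% at 1% to 2% down to 6.21% to 7.57% at 3% to 4%. Beyond 4% little further fall was seen, with 5.47% to 6.22% and 5.53% to 6.05% in the next ranges. Just outside the lower limit, at 2.5% to 3%, cells held 8.70% to 10.8% ribosomal UMIs and just inside, at 3% to 3.5%, 6.45% to 8.5%. From a mitochondrial share of 0.5% upward, Malat1 was highest at 6% to 10% in each library, at 1.10%, 1.49%, 1.53% and 1.99%. The ER share at 6% to 10% was 2.29% to 2.75%.

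**Figure D5:**
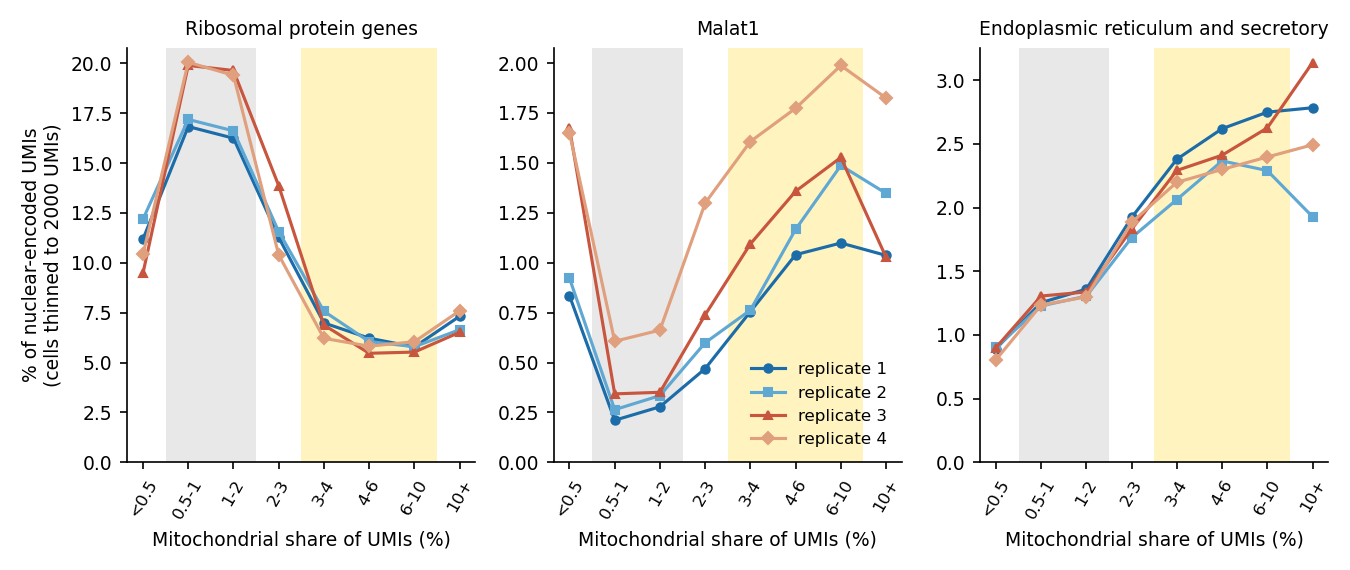
Share of nuclear-encoded UMIs in ribosomal protein genes, Malat1 and ER genes (y axes, percent, at 2000 UMIs per cell) across ranges of the mitochondrial share (x axes, percent), with 1 line per GL261-GSCs library and shading for comparison (grey) and mitochondria-rich cells (yellow). Ribosomal genes drop between the 1% to 2% and the 3% to 4% ranges in every library, while Malat1 and ER genes climb.

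Barcodes with under 0.5% mitochondrial UMIs were a contrast. The 108 to 153 such barcodes per library were shallow too, with medians of 3292 to 4672 UMIs, and rich in Malat1, at 0.835% to 1.68%. Yet their ER share was 0.81% to 0.90%, below that of every other range in these libraries, and their ribosomal share of 9.48% to 12.2% lay above that of the mitochondria-rich cells. Low depth and a high Malat1 share thus occurred at both ends of the mitochondrial range.

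The spread among single mitochondria-rich cells was described for the ribosomal list and for Malat1. At 2000 UMIs the ribosomal share of single cells had a median of 4.98% to 5.53% and a 90th percentile of 8.04% to 10.3% across the 4 libraries. Comparison cells had a 10th percentile of 13.3% to 16.0%. Only 47, 37, 46 and 16 mitochondria-rich cells, 6.63%, 5.29%, 2.41% and 1.29%, exceeded the 10th percentile of the comparison cells of their library. The Malat1 share of single mitochondria-rich cells ran from a 10th percentile of 0.197%, 0.269%, 0.363% and 0.624% to a 90th percentile of 1.96%, 2.28%, 2.65% and 3.16% in replicates 1 to 4. As the share of a single gene it carries more counting error than that of a list, so the spreads are not compared. Deep members kept the pattern: the 42 to 159 cells per library with at least 10000 UMIs had 6.90% to 9.86% ribosomal UMIs, against 16.7% to 20.4% in comparison cells of that depth. Their Malat1 share was 0.750% to 1.20%.

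In serum-grown GL261 cells the same contrast was tested for a difference in size. In 1 model over all 6 libraries, 662 of 13468 genes (4.92%) had a difference between mitochondria-rich and comparison cells that itself differed between the groups (edgeR interaction, adjusted p under 0.05), and 1927 did without thinning. The difference was the more positive in GL261-GSCs for 369 genes (2.74%) and in GL261 for 293 (2.18%). In the summed counts ribosomal genes fell less in GL261, with a median of -1.35 against -2.03 in that model, and the contrast differed for 55 of 77 of them. Malat1 rose more in GL261, by 2.04 against 1.37. Rpl41 fell by 1.38 in GL261 against 2.52. In GL261 replicate 1, 25.9% of mitochondria-rich cells exceeded the 10th percentile of the ribosomal share of comparison cells, against 14.6% in GL261 replicate 2. The median mitochondria-rich cell held 4.91% and 4.73% ribosomal UMIs in GL261 replicates 1 and 2, near the 4.98% to 5.53% of GL261-GSCs. The 90th percentiles were 30.6% and 17.1%, against 8.04% to 10.3%. What this spread contributes to the summed counts was not tested. Without GL261 replicate 1 the count of differing genes was 93, and without GL261 replicate 2 it was 335. In those fits GL261 rests on 1 library, which is assumed to vary like the others.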

How the data were processed

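Gene expression was measured in 6 droplet libraries. Their matrices of raw UMI counts by gene and barcode came from Cell Ranger 4, per the file headers. The build mm10 is named in the submitters' processing notes. Settings of the aligner are not given in the sources. The counts deposited by the authors carry no filter on barcodes and no cell annotation. Groups and replicates come from the sample titles. Symbols shared by several identifiers (94, Aldoa among them) are uncertain. Coordinates, lengths and classes come from GENCODE M21 (GRCm38), which held 99.9% of identifiers.

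Barcodes with at least 2500 UMIs and 500 genes were kept, and no doublet caller was run. Cells were thinned to 2000 UMIs without replacement. UMIs of nuclear-encoded genes were summed per library and kind of cell, and the sums were tested in edgeR 4.0.16 (R 4.3.3; glmQLFit, TMM, filterByExpr, Benjamini-Hochberg, 2-sided) with the library as a block, since both kinds of cell come from the same libraries. The SE is the log2 difference over the root of its F statistic. The test says whether a difference was repeated over the libraries, for cells chosen by a measured share. Shares have exact (Clopper-Pearson) 95% intervals. The test was tried on simulated data: among 11629 genes drawn like those of this comparison, 200 were changed by 1 on the log2 scale, and edgeR recovered 200 with 9 false calls among 209. All other genes were left unchanged there, whereas 74.6% were called in the data, so it does not bear on the choice of scale. Alternatives covered DESeq2 1.42.0, scaling, filters, depth, limits of the mitochondrial share and each library left out; subtraction of free RNA and limma-voom (limma 3.58.1) were chosen after seeing the data.

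Genes were named as the 10 largest rises and 10 largest falls among called genes whose average log2 CPM reached 7 and whose sign was the same in 4 libraries, without predicted genes, pseudogenes and mitochondrial genes. Malat1, Neat1, Olig2, Mki67, Top2a, Actb, Eef1a1 and Vim were added, as was from every list with at least 5 tested genes the one of smallest p. Other genes in the text are members of the 22 lists (433 symbols), picked as examples after their values were seen. Members and lists were chosen with earlier results of these data known. Depth and mitochondrial genes were described without a test, since the rule used them. Values of a few list genes are not reported here.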

Additional observations from a re-analysis of the deposited data

Results flagged for a closer look

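For 16 of the 41 named genes, the difference between mitochondria-rich and comparison cells itself differed between GL261-GSCs and GL261 (edgeR interaction, adjusted over all 13468 genes). Over all genes it did for 662 (4.92%). The largest rises and falls were picked by their values in GL261-GSCs, which favours a larger difference there. Values are the log2 difference in GL261-GSCs minus that in GL261. Among genes higher in mitochondria-rich cells, 3 rose more in GL261-GSCs: Neb at 0.45 (adjusted p 0.0498), Scd2 at 0.54 (0.0184) and Tm9sf2 at 0.64 (0.000111). Neat1 at -0.69 (0.000712) and Malat1 at -0.67 (0.0323) rose less there than in GL261.

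The other 11 were lower in mitochondria-rich cells of both groups, and fell further in GL261-GSCs. The respiratory chain genes were Atp5e at -1.26, Uqcrq at -0.88 and Ndufa11 at -0.57, with the assembly factor Uqcc2 at -0.85 and the ATP synthase subunit Usmg5 at -0.74. The ribosomal genes were Rpl41 at -1.14, Rplp0 at -1.01, Rpl23a at -0.95 and Rpl32 at -0.88. The selenoprotein Selenow stood at -1.32 and Tmsb10 at -0.85. All 16 kept their sign in each alternative run, but 3 were still called without GL261 replicate 1 and 12 without GL261 replicate 2.

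Among 192 groups of 4 GL261-GSCs values, 8 held a library far from the other 3, where chance alone gives about 1 group in 20. Reln stood high in replicate 1 in both kinds of cell, at 745 CPM in mitochondria-rich cells against 284 to 356, and at 221 CPM in comparison cells against 96.9 to 109.9. Vim in comparison cells was lowest in replicate 1, at 5496 CPM against 6106 to 6217. Among mitochondria-rich cells Atp5e was highest in replicate 4, at 214 CPM against 184 to 186, and Top2a in replicate 3, at 1129 CPM against 776 to 810. The mitochondrial mRNAs took 4.48% of all UMIs in mitochondria-rich cells of replicate 3 against 3.94% to 4.03%, and the astrocyte list took 0.0428% of nuclear-encoded UMIs there against 0.0529% to 0.054%. The Malat1 share of free RNA was 1.38% in replicate 4 against 0.274% to 0.421%.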

How the results depend on the processing

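The count of 8876 genes called between mitochondria-rich and comparison cells stayed within 1.5 times under 10 other settings with all libraries, and was 7896 to 8862 with 1 library left out. It was 2372 of 7555 tested genes (31.4%) for cells of 2500 to under 5000 UMIs, where fewer cells and genes enter. Of 6288 genes called with all depths and tested in that window, 5716 (90.9%) had the same sign and 2333 were called again, 2331 of them in the same direction. With no replicate block, so that the pairing of the kinds of cell by library is not used, 5771 genes were called. DESeq2 called 7733. The difference in the share of mitochondria-rich cells was 9.24 to 15.4 percentage points with 1 library left out, and 8.15 to 8.49 with other limits. The count of genes whose contrast differed between GL261-GSCs and GL261 was 1927 without thinning, and 93 to 582 with 1 library left out; leaving out GL261 replicate 1 gave the 93, and leaving out GL261 replicate 2 gave 335, each with GL261 resting on 1 library. Of 656 values of the 41 named genes under alternatives, 651 kept direction and call, 5 lost the call (Olig2 and Bnip3 with no block, Olig2, Vim at -0.47 and Pvt1 at 0.30 in the window) and 0 changed direction. Free RNA limits levels near its own share, more so in the shallow cells.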
